A study of Homo sapiens with 16 samples.

Results

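The genes described here encode subunits of the Polycomb repressive complexes, and they were chosen by symbol as EZH1, EZH2, EED, SUZ12 and JARID2 of Polycomb repressive complex 2 (PRC2) and RING1, RNF2, BMI1, CBX2 and CBX8 of Polycomb repressive complex 1 (PRC1). All 10 were found among the 12676 genes of the deposited RNA-seq count table. The study compared H1299 cells, which derive from a non-small cell carcinoma of the human lung, after infection with a pLKO lentivirus carrying either a non-targeting shRNA (shNT, the control) or an shRNA that targets YEATS2 (shYEATS2), and it sequenced mRNA from 2 biological replicates of each group, each as a library. Both groups received polybrene at 8 µg per ml, and puromycin at 2 µg per ml was added after 48 h. Selection lasted 4 to 7 days per the labels and 3 to 4 days per the methods. The knockdown libraries come from a single shRNA, which the labels do not name, so its on-target and off-target effects cannot be told apart in these libraries. The 12 ChIP-seq samples of the series were not analysed here.

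Polycomb proteins keep developmental genes silent. PRC2 methylates lysine 27 of histone H3 (H3K27) through EZH2 or its paralog EZH1, which need EED and SUZ12 to be active, and JARID2 helps to recruit and stimulate the complex. PRC1 ubiquitinates histone H2A through RING1 or RNF2 paired with a PCGF protein such as BMI1, and its CBX subunits read methylated H3K27. In proliferating cells EZH2 is usually the main methyltransferase, and EZH1 is the form typical of resting cells. YEATS2, a subunit of the ATAC acetyltransferase complex, reads acetylation on the same H3K27 residue, which cannot be acetylated and methylated at once.

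The listed genes received 34718921 to 39417787 reads per library. Counts of single genes are given as scaled reads, which are raw counts corrected for library size by the TMM method of edgeR and set to the mean size of the 4 libraries. A gene was called lower or higher at a false discovery rate (FDR) under 0.01 in the quasi-likelihood test of edgeR (Benjamini-Hochberg adjustment over all genes), and every FDR below comes from this test unless another is named. The knockdown target, YEATS2, had 4482 and 4104 scaled reads in shNT and 665 and 673 in shYEATS2 libraries. The epithelial keratin genes KRT8 and KRT18 and the mesenchymal gene VIM were counted at 7983 scaled reads or more in every library, and PTPRC of leukocytes and PECAM1 of endothelium were not among the listed genes.

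The catalytic pair of PRC2 moved in opposite directions after YEATS2 KD. EZH2 mRNA was lower, EZH1 mRNA was higher, the EZH2 partner SUZ12 and the PRC1 reader CBX2 were lower, and the PRC2 cofactor JARID2 was higher. EED, RNF2, RING1, BMI1 and CBX8 were not called. Of the 10 genes, 3 were thus called lower and 2 higher, where 12.5% of all genes tested were called lower and 12.9% higher. The share called in either direction was 50% among the 10 genes and 25.3% among all genes, and 4 of the 5 PRC2 genes but 1 of the 5 PRC1 genes were called. The median log2 fold change of the 10 genes was -0.21 and that of all genes was -0.0019.

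Short promoter sequences of 3 of these genes are shown because EZH2 is a known target of E2F, the transcription factor family that drives genes of DNA synthesis. The promoters came from RefSeq (GRCh38.p14, 250 bases before to 50 bases after the start), where 8 of the 10 genes had 11 entries. They were searched on both strands for the E2F words TTTGGCGC, TTTCCCGC, TTTGCCGC and TTTCGCGC, no 2 of which can start at the same base. A word was found in 3 of these 11 promoters and in 4.99% of the 13359 promoters of genes in the count table. The matches are given 5′ to 3′ on the strand of the gene, with the word in capitals.
EZH2 (chr7:148884272-148884301, minus strand): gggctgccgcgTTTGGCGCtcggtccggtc
SUZ12 (chr17:31936807-31936836, plus strand): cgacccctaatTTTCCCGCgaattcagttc
EZH1 (chr17:42745137-42745166, minus strand): gcggggttttgGCGGCAAAtgacagtagtg
In EZH1 the word is the reverse complement of TTTGCCGC. Among the searched genes, a word thus stood in promoters of 2 that were lower and of 1 that was higher. The other entry of EZH2 held no word, and none was found in the windows of EED, JARID2, RNF2, RING1 and BMI1. CBX2, which was also lower, and CBX8 had no entry and were not searched.

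EZH2, the methyltransferase, lies on chromosome 7 of GRCh37 (hg19) from 148504349 to 148581413. It had 3838 and 4056 scaled reads in shNT libraries and 2686 and 2819 in shYEATS2 libraries. Both knockdown libraries lay below both controls, at 3947 ± 154 (SD, n = 2) against 2752 ± 93.5 on average. The log2 fold change came to -0.52 (standard error 0.094, FDR 0.00556). With scaling by total counts in place of TMM, which moves the median of all genes by 0.12 on the log2 scale, it was -0.40 and the FDR of 0.0133 no longer passed. The call was also lost without shNT replicate 1 (log2 fold change -0.56, FDR 0.0215) and without shNT replicate 2 (-0.48, FDR 0.0390).

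EZH1, the paralog on chromosome 17 of GRCh37 from 40852293 to 40897067, showed the largest change of the 10 genes. Its scaled count was 708 and 705 in shNT libraries and 1360 and 1518 in shYEATS2 libraries, so the groups were far apart and the controls almost identical. It rose by 2.04-fold, from 707 ± 2.02 (SD, n = 2) to 1439 ± 112 on average. The log2 fold change came to 1.03 (standard error 0.11, FDR 0.00129), and 94.2% of all genes had a lower log2 fold change. This call held in all 14 alternatives, where the log2 fold change ranged from 0.95 to 1.15.

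A ratio of EZH2 to EZH1 within a library does not depend on the scaling of that library. The ratio of their reads was 5.42 and 5.75 in shNT and 1.97 and 1.86 in shYEATS2 libraries. The ratio was lower in both knockdown libraries, and its geometric mean fell by 2.92-fold. An exact permutation test (two-sided) of 2 libraries against 2 gave p = 0.333, which is the smallest value this design allows. The log2 change of the ratio was -1.54, with a range from -1.59 to -1.50 over the fits that leave out a library.

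**Figure D1:**
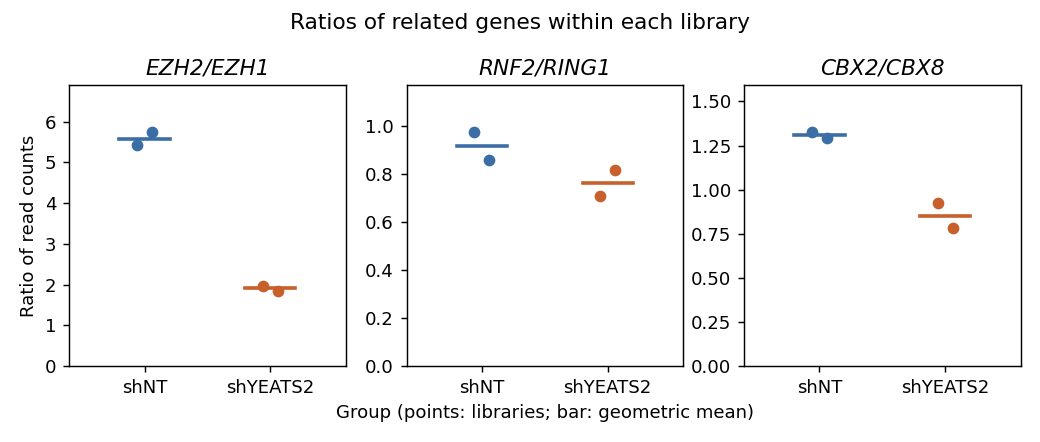
Ratios of the read counts of EZH2 to EZH1, RNF2 to RING1 and CBX2 to CBX8 on linear axes from 0, with points for the 2 shNT and 2 shYEATS2 libraries and bars for the geometric means. The EZH2/EZH1 ratio was 5.42 and 5.75 in shNT and 1.97 and 1.86 in shYEATS2, and the RNF2/RING1 and CBX2/CBX8 ratios were lower in both knockdown libraries by smaller factors.

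Levels of different genes can be compared only per length, here as scaled reads per kilobase of the longest coding transcript (RPKM). On this scale EZH2 had the highest mean of the 10 mRNAs, at 40.8 ± 1.61 (SD, n = 2) in shNT and 28.4 ± 0.88 in shYEATS2, although RING1 (28.7) was above EZH2 (27.8) in shYEATS2 replicate 1 and with the union of all annotated exons as the length RING1 (24.5 in shNT) led and EZH2 stood at 10.1. EZH1 was at 4.19 ± 0.01 and 8.50 ± 0.64. EZH1 made up 9.56% and 9.06% of the summed level of both genes in shNT and 22.5% and 23.6% in shYEATS2 libraries. The sum was 43.9 and 46.1 in shNT and 35.8 and 38.0 in shYEATS2. The length used matters here. With the union of exons the EZH1 share was 22.1% and 21.1% against 43.8% and 45.4%, and the sums of the groups overlapped, at 12.6 and 13.1 against 12.2 and 13.1.

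SUZ12, the zinc finger subunit that holds PRC2 together, lies on chromosome 17 of GRCh37 from 30264026 to 30328057. It had 3077 and 2680 scaled reads in shNT libraries and 1968 and 1763 in shYEATS2 libraries. The groups did not overlap, and the log2 fold change was -0.63 (standard error 0.11, FDR 0.00555). The FDR was 0.0303 without shNT replicate 1 and 0.0171 without shYEATS2 replicate 2. SUZ12P, a transcribed unprocessed pseudogene of SUZ12 on the same chromosome, can share reads with it, and its values were 218 and 200 scaled reads in shNT and 260 and 311 in shYEATS2 (FDR 0.0617).

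EED, the WD-repeat subunit that binds methylated H3K27, had 1185 and 1085 scaled reads in shNT and 917 and 790 in shYEATS2 libraries. The groups did not overlap, but the log2 fold change of -0.41 (standard error 0.12) had an FDR of 0.0293 and was not called. With the replicate number as a block the FDR was 0.00691.

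JARID2, the DNA-binding cofactor of PRC2 on chromosome 6 of GRCh37 from 15246300 to 15522273, had 859 and 993 scaled reads in shNT and 1344 and 1502 in shYEATS2 libraries. Both knockdown libraries were above both controls. The log2 fold change was 0.62 (standard error 0.12, FDR 0.00708). The value was 0.52 without shNT replicate 1 (FDR 0.05), 0.73 without shNT replicate 2 (FDR 0.0127) and 0.54 without shYEATS2 replicate 2 (FDR 0.0205).

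**Figure D2:**
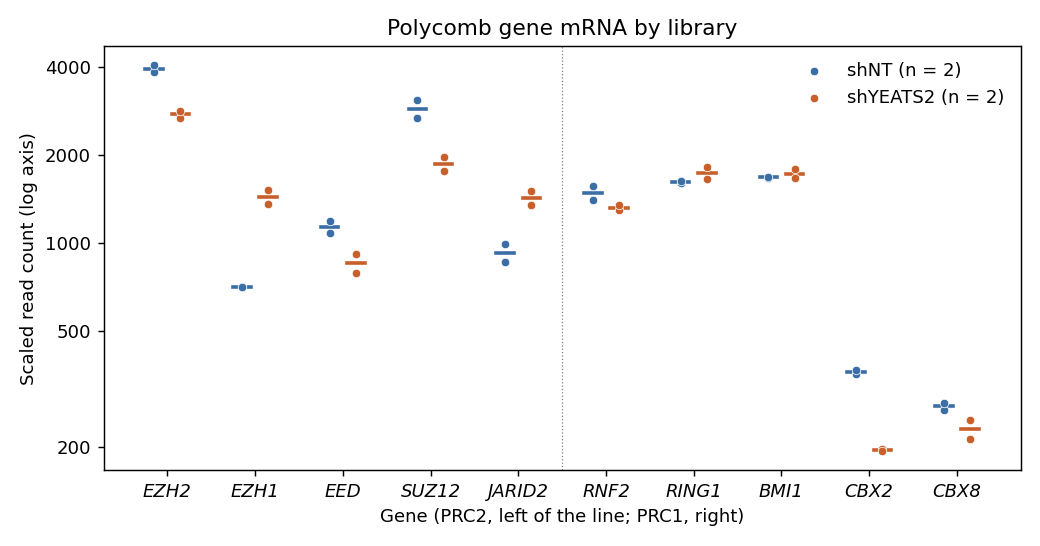
Scaled read counts of the 10 genes on a log axis, with a point for each of the 2 shNT and 2 shYEATS2 libraries and a bar for each group mean. EZH2, SUZ12 and CBX2 were lower and EZH1 and JARID2 higher in both shYEATS2 libraries, and the groups overlapped in BMI1 alone among the 10.

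Neither enzyme of PRC1 was called. RING1, an E3 ubiquitin ligase for histone H2A, had 1602 and 1634 scaled reads in shNT and 1819 and 1652 in shYEATS2 libraries. Its paralog RNF2 (RING1B) had 1563 and 1404 in shNT and 1292 and 1352 in shYEATS2. The 95% interval of the log2 fold change was -0.13 to 0.33 for RING1 and -0.41 to 0.08 for RNF2, so a change of EZH1's size lay outside both. BMI1, the PCGF partner that activates the ligase, had 1670 and 1685 scaled reads in shNT and 1786 and 1669 in shYEATS2, and these groups overlapped. Its log2 fold change was 0.04 with a 95% interval from -0.18 to 0.27. BMI1 shares 22.8% of its annotated exon bases with the readthrough gene COMMD3-BMI1, so part of its reads may have been left uncounted as ambiguous. The RNF2/RING1 read ratio was 0.976 and 0.859 in shNT and 0.710 and 0.818 in shYEATS2 (exact permutation test, two-sided, p = 0.333, the smallest possible).

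CBX2 and CBX8 encode chromodomain readers of methylated H3K27 and are neighbours on chromosome 17 of GRCh37, at 77751947 to 77761782 on the plus strand and 77765931 to 77775482 on the minus strand. CBX2 had 357 and 367 scaled reads in shNT and 198 and 195 in shYEATS2 libraries. Replicates differed by little and the groups were far apart, with a log2 fold change of -0.88 (standard error 0.14, FDR 0.00384). The FDR rose to 0.0181 without shNT replicate 1, 0.0214 without shNT replicate 2 and 0.0105 without shYEATS2 replicate 2, while the log2 fold change stayed between -0.91 and -0.86. CBX8 had 269 and 283 scaled reads in shNT and 214 and 248 in shYEATS2, with a log2 fold change of -0.26, a 95% interval from -0.63 to 0.12 and an FDR of 0.214. The CBX2/CBX8 read ratio was 1.33 and 1.30 in shNT and 0.922 and 0.786 in shYEATS2 (exact permutation test, two-sided, p = 0.333, the smallest possible). Per length, CBX2 and CBX8 were the least abundant of the 10 mRNAs in both groups, at 2.15 and 2.02 in shNT and 1.16 and 1.68 in shYEATS2.

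**Figure D3:**
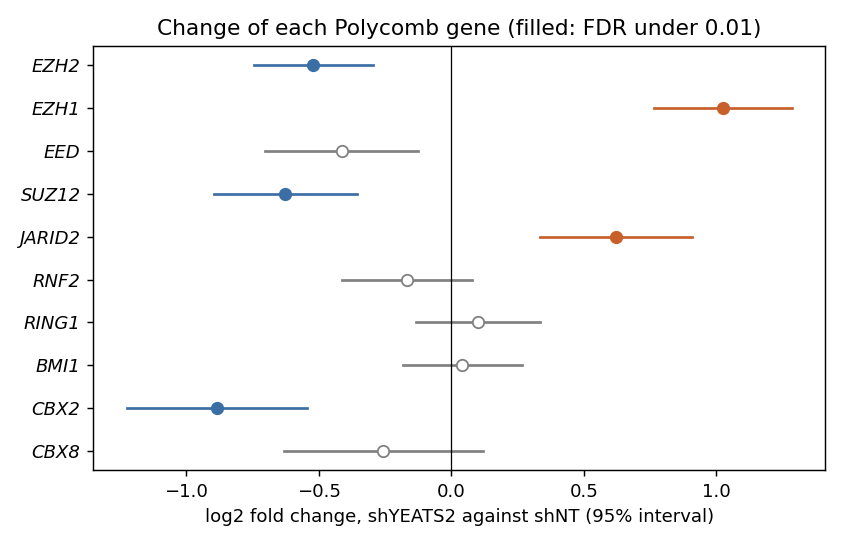
Log2 fold change of each gene in shYEATS2 against shNT libraries with its 95% interval from the quasi-likelihood fit, filled where the FDR was under 0.01. The 3 lower genes (EZH2, SUZ12, CBX2) and 2 higher genes (EZH1, JARID2) are filled, and the intervals of RNF2, RING1, BMI1 and CBX8 include 0.

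On the TMM scale the scaled reads of the 2 groups did not overlap in 9 of the 10 genes, and the same held for 79.6% of all genes tested. Replicates of a group differed by at most 1.16-fold in any of the 10. Per length of the longest coding transcript, the order in shNT was EZH2, RING1, SUZ12, EED, BMI1, RNF2, JARID2, EZH1, CBX2 and CBX8. SUZ12 and EED (17.6 and 17.4) did not differ beyond their spread in shNT, nor did JARID2 and EZH1 (4.23 and 4.19). In shYEATS2 EZH1 (8.50) stood above JARID2 (6.49) on this length, and RING1 (27.3 ± 1.92) did not differ from EZH2 (28.4 ± 0.88) beyond the spread. These orders depend on the length, since with the union of exons SUZ12 (12.1) was above EED (4.45) and JARID2 (4.07) above EZH1 (2.78) in shNT, and JARID2 (6.24) was above EZH1 (5.64) in shYEATS2.

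The other genes of the Polycomb machinery were read from the same fit. Among 8 accessory genes of PRC2, 1 was lower and 1 higher. PHF1, a Polycomb-like protein that binds methylated H3K36, had 2063 and 2228 scaled reads in shNT and 3679 and 5308 in shYEATS2 libraries (log2 fold change 1.07, FDR 0.00397). PHF19, a related Polycomb-like protein, had 8445 and 8720 against 6268 and 6138 (-0.47, FDR 0.00663), which was not called with total counts (FDR 0.0176). The third Polycomb-like gene, MTF2, had a log2 fold change of -0.37 and an FDR of 0.0167. The histone-binding subunits RBBP4 and RBBP7 had values of -0.24 and -0.21 with FDR values of 0.107 and 0.0933.

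None of the 9 other genes of canonical PRC1 was called in edgeR's quasi-likelihood test. Of these 9 genes 1 had an unadjusted p under 0.05 in that test, as did 7164 of all 12676 genes. Both exactTest and DESeq2 called PHC3 higher. PHC3, a Polyhomeotic protein named here after its values were seen, had a log2 fold change of 0.38 and an FDR of 0.0158 in the quasi-likelihood test. Of 12 listed genes of variant PRC1, which contains other PCGF proteins and RYBP in place of CBX, 1 was lower and 2 were higher. The largest of these changes was in PCGF5, the RING partner in a variant complex. PCGF5 had 1625 and 1673 scaled reads in shNT and 589 and 409 in shYEATS2 libraries, a log2 fold change of -1.73 with an FDR of 0.00118. BCORL1, a corepressor, rose by 0.69 (FDR 0.00312) and E2F6, a repressive E2F of variant PRC1, by 0.58 (FDR 0.00810). Together the 29 measured genes of these 3 lists had 5 calls (17.2%), below the 25.3% of all genes.

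Enzymes that remove the Polycomb marks included the largest rise of these lists. KDM6B, an H3K27 demethylase, had 775 and 826 scaled reads in shNT and 2692 and 4046 in shYEATS2 libraries. That was a log2 fold change of 2.07 with an FDR of 0.00105. KDM6A, its X-linked relative, had 1262 and 1212 against 1741 and 1877 (0.55, FDR 0.00525). BAP1, the deubiquitinase that removes ubiquitin from histone H2A, had 3865 and 3821 against 1848 and 1390 (-1.25, FDR 0.00151). The other 6 measured genes of this list were not called, so 3 of 9 (33.3%) were called, against 25.3% of all genes. With each library left out in turn, PCGF5, PHF1, KDM6B and BAP1 were called in all 4 fits. BCORL1 was not called without shNT replicate 1 (FDR 0.0129) or shNT replicate 2 (FDR 0.0201). The same libraries, and shYEATS2 replicate 2, each decided the calls of PHF19, E2F6 and KDM6A, where the FDR rose to between 0.0138 and 0.0527.

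**Figure D4:**
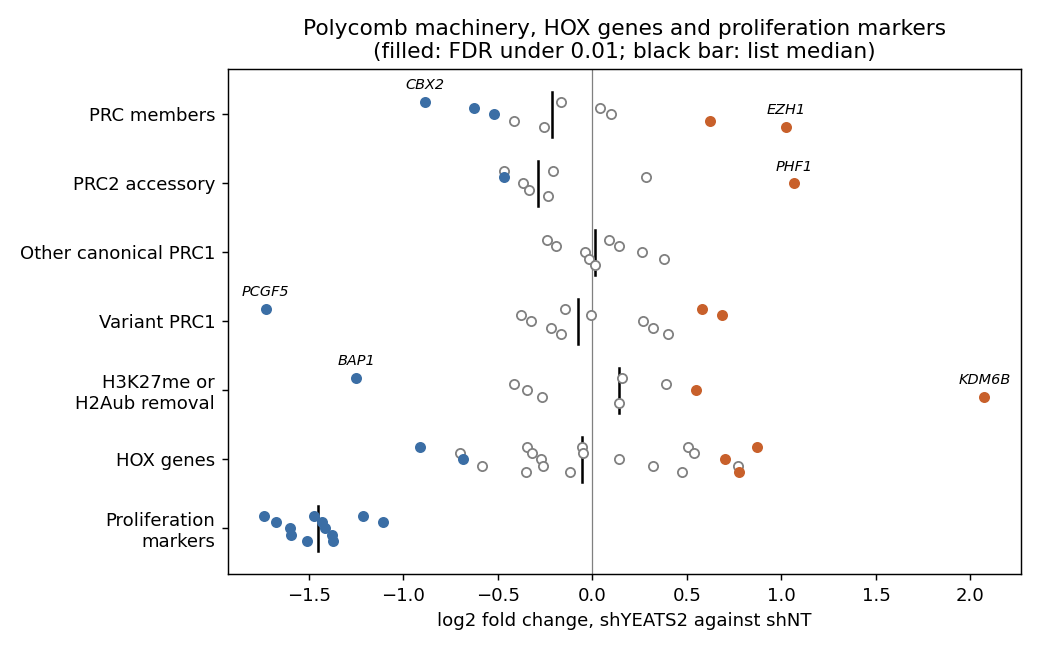
Log2 fold changes in shYEATS2 against shNT libraries for the 10 genes and the other lists, with a point for each gene, filled where the FDR was under 0.01, and a black bar at each list median. EZH1, PHF1 and KDM6B lie on the higher side and CBX2, PCGF5 and BAP1 on the lower side, and all 12 proliferation markers lie between -1.74 and -1.11.

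HOX genes are classical targets of Polycomb silencing, and those in the count table did not move in a single direction. Of the 39 HOX genes 21 were in the table, 2 of them lower and 3 higher. Every listed gene had at least 101 reads in some library, so HOX genes with fewer reads in all libraries could not be followed. The share called was 23.8%, near the 25.3% of all genes, with a median of -0.05 that became 0.07 with total counts. HOXC6 had 1408 and 1406 scaled reads in shNT and 2495 and 2644 in shYEATS2 libraries (log2 fold change 0.87, FDR 0.00129). HOXB9 had 1630 and 1964 against 2969 and 3179 (0.77, FDR 0.00327), and its FDR was 0.0154 without shNT replicate 1. HOXA9 rose by 0.70 (FDR 0.00358), with an FDR of 0.0160 without shNT replicate 1 and 0.0231 without shNT replicate 2. HOXB4 had 2997 and 3141 against 1909 and 1354 (-0.91, FDR 0.00525). HOXC10 had 955 and 1089 against 622 and 649 (-0.69, FDR 0.00463), and its FDR was 0.0304 without shNT replicate 2. The members of a cluster thus included genes on both sides, such as HOXC6 and HOXC10.

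Markers of proliferating cells were taken from the same fit. All 12 of them were called lower, where 12.5% of all genes tested were called lower. Their median log2 fold change was -1.45. The values ranged from -1.74 for RRM2, the ribonucleotide reductase subunit, to -1.11 for AURKA, the mitotic kinase. RRM2 had 17690 and 18250 scaled reads in shNT and 6099 and 4679 in shYEATS2 libraries. TYMS, MCM2 and PCNA of DNA synthesis had log2 fold changes of -1.68, -1.60 and -1.59. The values of EZH2 (-0.52), SUZ12 (-0.63) and CBX2 (-0.88) were all closer to 0 than any of the 12. The part of the lower proliferation markers in the results for the Polycomb genes was not tested, and in these bulk libraries fewer cells of a type and less RNA per cell cannot be told apart.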

How the data were processed

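The authors aligned the reads to hg19 by the RNA-Seq unified mapper, ran HTSeq at default parameters and deposited raw read counts per gene without normalization. TopHat2 2.0.10 is also among the tools in the submitters' processing notes. The annotation is not given in the sources used here. Every listed gene has at least 101 reads in some library. The deposited log2 fold changes, p-values and FDR values are the authors' own comparison by edgeR and were not used. The TruSeq mRNA kit does not mark strand, so overlapping genes cannot be separated.

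A filter of 10 reads or more in 2 or more libraries kept all 12676 genes, which entered edgeR 4.0.16 (R 4.3.3), with TMM scaling and the quasi-likelihood test. The methods name exactTest, which was an alternative beside DESeq2 1.42.0 and limma 3.58.1. Libraries held 34718921 to 39417787 reads, and the biological coefficient of variation was 0.107. In a simulation of 12676 genes, 195 of the 200 altered genes were called, with 1 false call. The altered genes changed by 1 on the log2 scale in either direction, and every gene had the same biological coefficient of variation. The simulation therefore does not measure the false calls in the data. The share called at the smaller sizes seen in EZH2, SUZ12 and JARID2 was not tested. Fits with a library left out assume that the lone library varies like the others.

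The 10 genes, the lists and the rule for named genes were chosen with earlier results of these data known. Named genes are the 10 genes, YEATS2, the called genes of the Polycomb lists, up to 4 called genes with the largest change of the HOX and proliferation lists, and the 5 nearest profiles to EZH2 and EZH1. Other genes are named for a value seen, and some results on single genes are not reported here. Positions come from GENCODE version 44 lifted to GRCh37, which held 12465 of the identifiers.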

Additional observations from a re-analysis of the deposited data

How the results depend on the processing

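Over 14 alternatives each, 127 of 140 values of the 10 genes kept their direction and side of the FDR limit. The call was lost in 11, of which 10 had a library left out and 1 was EZH2 with total counts, and EED gained a call under the replicate block. The log2 fold change of BMI1 reversed to -0.0062 without shYEATS2 replicate 1 and was at most 0.0919 in the other fits with a library left out. The number of the 10 genes called lower was 3, and 2 to 4 in the alternatives that kept all libraries; with a library left out it ranged from 0 to 3, and that called higher from 1 to 2. These fits hold 3 libraries. The log2 change of the RNF2/RING1 ratio ranged from -0.37 to -0.16 and that of CBX2/CBX8 from -0.74 to -0.51 with each library left out. With the replicate number as a block, 4 of the 10 genes were lower and 2 higher. Deviations of same-numbered libraries from their group means had a correlation of 0.40 over 12676 genes, which hints at a shared factor, but the labels do not say that a number marks a shared batch and there are 2 pairs, so the fit without the block was kept as designed. Among HOX genes 3 were higher, against 6 with exactTest or the block and 5 with DESeq2 or total counts. Among PRC2 accessory genes 1 was lower, against 3 with exactTest or the block, 2 with DESeq2 and 0 with total counts. Of the genes that remove Polycomb marks 1 was lower, against 2 with exactTest, DESeq2 or the block. Of the other canonical PRC1 genes 0 were higher, against 1 with exactTest, DESeq2, total counts or the block. The depth limits CBX2 and CBX8 most, at 201 to 338 reads per library.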

Other observations

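The genes with profiles closest to EZH2 over the 4 libraries, by Euclidean distance of log2 CPM centred on each gene's mean, were LINC00189, DPH5, VPS33A, TMEM186 and MRPS28, at distances of 0.010 to 0.038 among 12122 genes with a mean of at least 100 scaled reads. Among those closest to EZH1 were MANSC1, GSAP, ANKRD52 and MRC2, at 0.038 to 0.046. With 4 libraries in 2 groups, nearness mostly says that a gene changed by a like amount.

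The 7-base words AAGTTCA and CAAGTTC were counted in 3′ UTRs, taking for each gene its transcript with the most coding bases. The median log2 fold change was -0.14 in genes with a word and 0.0078 in genes without, and this difference was not tested. The methods print the sequences of the YEATS2 shRNAs. AAGTTCA stands in none of them on either strand, and CAAGTTC stands only in the middle of the reverse complement of the sequence listed last. An effect of an shRNA through these words was not tested. Of the 10 genes only SUZ12 carried a word (AAGTTCA, 1 copy in a 3′ UTR of 2035 bases), against 17.7% of 11421 genes. EZH2 and CBX2, which were also lower, carried neither word in 3′ UTRs of 263 and 2941 bases.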
